A study of Mus musculus with 16 samples.

Results

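The transcriptional response to rosiglitazone was examined in epididymal white fat of obese mice that lack Fgf21. It rests on 8 of the 16 bead arrays of the series, taken by their labels: 4 arrays of Fgf21-KO mice given rosiglitazone and 4 arrays of Fgf21-KO mice given vehicle. Each group of 4 arrays stands for 2 pools, every pool holding RNA of 2 mice and read on 2 arrays, so that n is 2 pools a group. The titles of the WT arrays name a mixed c57b6/sv129 background, and those of the Fgf21-KO arrays name no strain. All groups shared an age of 4 to 5 months, 10 weeks of high-fat diet and diet-induced obesity. The treated mice received rosiglitazone at 10 mg/kg for 2 weeks. The same treatment in wild-type (WT) mice, with 2 pools treated and 2 given vehicle, was used to test whether a response differed between genotypes. The WT arrays also entered the normalization, the choice of probes tested and the spread behind the standard errors and p-values for Fgf21-KO. How the knockout allele was made is not given in the labels used here.

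Rosiglitazone is a thiazolidinedione that binds and activates PPARG, the nuclear receptor that drives adipocyte formation and lipid storage. PPARG pairs with RXR on DNA and raises genes for fatty acid uptake, glycerol supply, lipid droplet coats and, in white fat, mitochondria. FGF21 is a hormone of liver and fat that acts through FGF receptors together with the co-receptor KLB, and Fgf21 itself is a known PPARG target in adipocytes. A knockout in all tissues removes the hormone from every source, while the labels used here name only an Fgf21 knockout.

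The tissue carried its defining genes. Adipoq, Plin1, Cidec, Lep, Lipe and Pnpla2, which encode 2 adipocyte hormones, 2 lipid droplet proteins and 2 triglyceride lipases, were detected on all 8 Fgf21-KO arrays, while Cfd was not tested and the single Fabp4 probe was dim, detected on 2 of 4 rosiglitazone arrays and 0 of 4 vehicle arrays. The Fgf21 probe passed detection on 1 rosiglitazone and 1 vehicle array of 4 each, with pool values of 5.22 and 5.54 under rosiglitazone and 5.17 and 5.58 under vehicle on the log2 scale. Its position relative to the deletion is not given in the sources used here, so it checks nothing about the genotype labels. Median array signals ran from 144.9 to 178.8 in the rosiglitazone group and from 147.3 to 151.7 in the vehicle group.

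One pool stood apart before any comparison. The first principal component of the 4 Fgf21-KO pools held 58.2% of the variance and placed vehicle pool 2 at 34.4, with both rosiglitazone pools and vehicle pool 1 between -17.2 and -4.80. The rosiglitazone pools correlated with each other at 0.993 and the vehicle pools at 0.984. In 130 of 9543 genes vehicle pool 2 exceeded vehicle pool 1 by more than 1 on the log2 scale, against 23 genes the other way, and in 43 genes the rosiglitazone pools differed by that much. Liver markers, described below, were among the genes high in this pool.

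By limma, 0 of 13759 probes passed an adjusted p of 0.05 for rosiglitazone against vehicle in Fgf21-KO fat (0%), and the smallest adjusted p was 0.672. Without adjustment 776 probes had a p under 0.05 (5.64%), of which 391 were higher (2.84%) and 385 lower (2.8%) under rosiglitazone. One probe, the brightest, then stood for each of 9543 genes. Of these 49% lay above and 51% below 0, with a median log2 difference of -0.005. In 2121 genes (22.2%) both rosiglitazone pools lay above both vehicle pools, and in 2177 genes (22.8%) both lay below. These shares are the background for every count that follows. A p given for a gene is limma's unadjusted p unless called adjusted, and no gene passed after adjustment, so the values describe these pools. With bulk tissue, fewer cells of a type and less RNA per cell cannot be told apart.

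Of the 12 genes with the largest positive differences, 5 that encode proteins of fatty acid and retinol handling are described together, a grouping made after the genes were seen. Rbp7, an intracellular retinol-binding protein, had log2 signals of 14.00 and 14.42 in the rosiglitazone pools, against 12.86 and 13.02 in the vehicle pools. The groups lay far apart relative to their spread, at a difference of 1.27 (SE 0.18, limma adjusted p = 0.672), which is 2.42-fold. Cyp4b1, a cytochrome P450 that hydroxylates fatty acids, stood at 11.47 and 11.79 under rosiglitazone, against 10.51 and 10.54 under vehicle, a difference of 1.11 (SE 0.15, limma adjusted p = 0.672). Slc27a1, the fatty acid transport protein FATP1, stood at 12.10 and 12.37 under rosiglitazone, against 11.22 and 11.04 under vehicle, again a difference of 1.11 (SE 0.18). Both rosiglitazone pools were the highest 2 of the 4 for each of these 3 genes, which the rule that chose the 12 required. Fabp5, a fatty acid binding protein that adipocytes and macrophages share, had 10.04 and 10.19 under rosiglitazone, against 8.99 and 8.92 under vehicle, a difference of 1.16 (SE 0.24, limma adjusted p = 0.814). Ephx2, the soluble epoxide hydrolase that opens epoxides of fatty acids, had 11.63 and 11.97 under rosiglitazone, against 10.38 and 10.67 under vehicle, a difference of 1.28 (SE 0.30, limma adjusted p = 0.814).

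The other 7 of the 12 largest positive differences were dimmer genes of varied function. Osbpl6, of the oxysterol-binding protein family, had 7.502 and 7.74 under rosiglitazone, against 6.22 and 6.35 under vehicle. Chrna2, a nicotinic acetylcholine receptor subunit, had 7.14 and 7.62 under rosiglitazone, against 6.01 and 6.21 under vehicle. Nap1l5, of the nucleosome assembly protein family, had 7.64 and 7.55 under rosiglitazone, against 6.44 and 6.39 under vehicle. For these 3 genes the pools of a group lay within 0.5 of each other, and the differences were 1.33 (SE 0.30), 1.27 (SE 0.26) and 1.18 (SE 0.21). Susd4 and Gm4952 differed by 1.15 (SE 0.32) and 1.29 (SE 0.48), their probes being detected on 2 and 3 of 4 vehicle arrays. Usp50, a member of the ubiquitin-specific peptidase family, was detected on all 4 rosiglitazone arrays and on 0 of 4 vehicle arrays, so that it was at least 1.44-fold higher under rosiglitazone (limma adjusted p = 0.795). Ccl8, a chemokine that draws monocytes and lymphocytes, had 9.18 and 9.34 under rosiglitazone, against 8.46 and 7.49 under vehicle, and was the single gene of the 12 whose p passed 0.05 (to 0.103, difference 0.80) when vehicle pool 2 was left out.

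**Figure D1:**
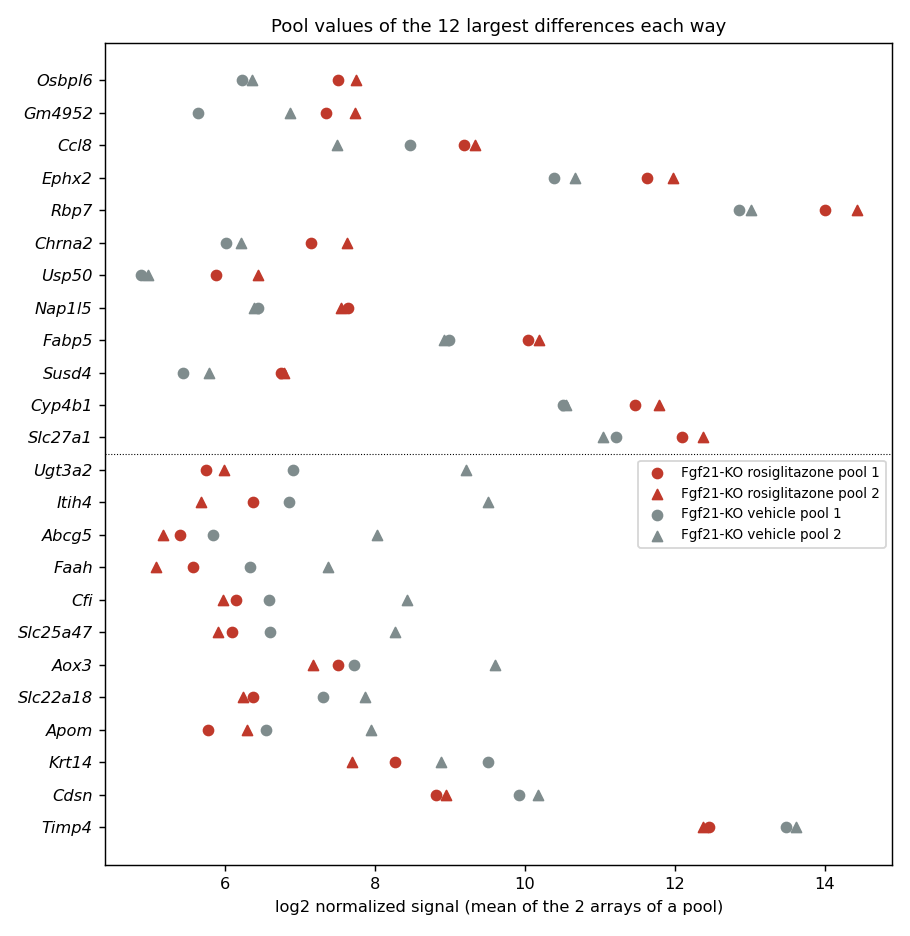
Log2 normalized signal (x axis) of the 12 genes with the largest positive difference (top) and the 12 with the largest negative difference (bottom) in each Fgf21-KO pool, rosiglitazone pools in red and vehicle pools in grey. In 8 of the 12 lower genes vehicle pool 2 (grey triangle) lies more than 1 above vehicle pool 1, against 1 of the 12 higher genes.

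In 8 of the 12 largest negative differences vehicle pool 2 lay more than 1 above vehicle pool 1. Ugt3a2, a UDP-glycosyltransferase, had 5.74 and 5.98 in the rosiglitazone pools, against 6.90 and 9.21 in the vehicle pools. Itih4, a plasma protein made by liver, had 6.37 and 5.68 under rosiglitazone, against 6.85 and 9.51 under vehicle. Vehicle pool 2 was far above the other 3 pools for both. Vehicle pool 2 was also the highest pool by more than 1 in Abcg5, a sterol transporter of liver and intestine, in Cfi, complement factor I, in Slc25a47, a mitochondrial carrier of liver, in Aox3, an aldehyde oxidase, in Apom, an apolipoprotein of high-density lipoprotein, and in Faah, the hydrolase of fatty acid amides. Abcg5 was detected on 0 of 4 rosiglitazone arrays and was at least 2.38-fold lower under rosiglitazone (limma adjusted p = 0.885). Without vehicle pool 2 its difference was -0.55, and those of Itih4, Cfi, Slc25a47, Aox3 and Apom lay between -0.83 and -0.38, with limma p from 0.0653 to 0.229 over these 6 genes, while Ugt3a2 and Faah stood at -1.04 and -1.01.

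In the other 4 genes the vehicle pools lay within 1 of each other. Cdsn, corneodesmosin, an adhesion protein of cornified epithelium, had 8.81 and 8.95 under rosiglitazone, against 9.93 and 10.17 under vehicle, a difference of -1.17 (SE 0.15, limma adjusted p = 0.672), the smallest p of the named genes. Krt14, a keratin of basal epithelial cells, had 8.26 and 7.69 under rosiglitazone, against 9.51 and 8.88 under vehicle, a difference of -1.22 (SE 0.28). Slc22a18, an organic cation transporter encoded in an imprinted cluster, had 6.37 and 6.24 under rosiglitazone, against 7.31 and 7.87 under vehicle, a difference of -1.29 (SE 0.20, limma adjusted p = 0.795). Timp4, an inhibitor of matrix metalloproteinases, had 12.46 and 12.37 under rosiglitazone, against 13.48 and 13.62 under vehicle, a difference of -1.13 (SE 0.41, limma adjusted p = 0.871), and of -1.06 without vehicle pool 2. No pools overlapped in these 4 genes, which the rule that chose the 12 required. Leaving out vehicle pool 2 kept 11 of the 12 higher genes and 5 of the 12 lower genes (Ugt3a2, Faah, Slc22a18, Krt14 and Cdsn) under an unadjusted p of 0.05, with the lone vehicle pool assumed to vary like the other groups.

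A fit over all 16 arrays, with the 2 arrays of a pool tied by a random block, called 13 probes in Fgf21-KO at an adjusted p of 0.05, 7 of them higher under rosiglitazone. Among them were Rbp7, Cyp4b1, Slc27a1, Ephx2, Cdsn, Slc22a18 and Krt14 of the genes above. A second group of 6 genes, seen through the same calls and chosen after their values were seen, was Gpr182, Capzb, Ppp1r1a, Isl1, Mutyh and Mustn1. Gpr182, an endothelial receptor, had 8.12 and 8.51 under rosiglitazone, against 6.995 and 7.13 under vehicle at the probe called. Ppp1r1a, an inhibitor of protein phosphatase 1, had 11.78 and 11.75 under rosiglitazone, against 10.91 and 10.75 under vehicle. Isl1, a homeodomain transcription factor, had 5.89 and 6.11 under rosiglitazone, against 6.90 and 6.97 under vehicle. Other probes did not all share the sizes of those called: the brightest Capzb probe differed by 0.05, against 0.69 at the probe called. The same random block fit was the one setting of those tried that called any probe in Fgf21-KO. It takes arrays as observations, with 1 correlation for all probes, so 2 readings of the same RNA count in part as replicates.

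PPARG targets of lipid storage stood higher as a list but not throughout. Of 33 listed genes 29 were tested, 20 were higher, 7 had a p under 0.05 and were higher (2.65% of all genes), and none had such a p and was lower. Both rosiglitazone pools lay above both vehicle pools in 17 of the 29 genes (22.2% of all genes), and below in 2. The median log2 difference was 0.20, against -0.005 for all genes. Beyond Fabp5, Cyp4b1 and Slc27a1, the lipid droplet coat gene Plin2 had 11.89 and 11.98 under rosiglitazone, against 11.30 and 11.35 under vehicle, a difference of 0.61 (SE 0.14, limma adjusted p = 0.814). For other classical targets the treated pools were not above the vehicle pools. Pparg itself had 13.25 and 13.10 under rosiglitazone, against 13.25 and 13.49 under vehicle, and Plin1, Angptl4, Pck1 and Cd36 stood at -0.06 (SE 0.19), -0.10 (SE 0.17), -0.05 (SE 0.36) and -0.33 (SE 0.17). Lpl, the lipoprotein lipase, read 15.76 and 15.77 under rosiglitazone, against 15.77 and 15.77 under vehicle, close to the top of the array's range, where the array may not resolve a difference. The Cd36 probe was dim, near 6 on this scale.

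Genes that supply and handle glycerol for triglyceride stood higher with the largest values in the pyruvate and glycerol phosphate steps. Of 12 tested genes 9 were higher and the list median was 0.36. At a p under 0.05, 5 were higher (2.65% of all genes) and 1 lower (3.06% of all genes). Pdk1, a kinase that restrains pyruvate dehydrogenase, had 8.85 and 9.19 under rosiglitazone, against 8.20 and 8.15 under vehicle, a difference of 0.85 (SE 0.15, limma adjusted p = 0.814). Gpd1, which makes glycerol 3-phosphate from a glycolytic intermediate, had 11.39 and 11.70 under rosiglitazone, against 10.94 and 10.76 under vehicle, a difference of 0.69 (SE 0.16). The sister kinases Pdk2 and Pdk4 stood at 0.56 (SE 0.18) and 0.69 (SE 0.24), and the cytosolic malate dehydrogenase Mdh1 at 0.52 (SE 0.14). Pdk3 lay on the other side of 0, with 7.68 and 7.57 under rosiglitazone, against 8.34 and 8.12 under vehicle, a difference of -0.60 (SE 0.17, limma adjusted p = 0.814). Aqp7, the glycerol channel of adipocytes, stood at 0.37 (SE 0.16, limma adjusted p = 0.888).

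Uptake, droplet and assembly genes gave a mixed picture. In fatty acid uptake and binding, 8 of 16 genes were higher and the median was 0.04. At a p under 0.05, 3 genes were higher (2.65% of all genes) and 2 lower (3.06% of all genes). Gpihbp1, which holds lipoprotein lipase on capillary endothelium, had 11.77 and 11.77 under rosiglitazone, against 11.005 and 11.32 under vehicle, a difference of 0.61 (SE 0.19). Got2 and Acsl5, a mitochondrial aminotransferase also found at the plasma membrane and an acyl-CoA synthetase, stood at -0.56 (SE 0.20) and -0.31 (SE 0.13). Among lipid droplet and lipolysis genes 10 of 17 were higher (median 0.15), with Abhd5, the activator of adipose triglyceride lipase, at 0.35 (SE 0.13) and Plin5, a droplet coat of oxidative cells, at 0.48 (SE 0.25). In triglyceride assembly 8 of 13 were higher, none had a p under 0.05 and the median was 0.02, with Agpat2 at 0.28 (SE 0.17), Dgat2 at 0.10 (SE 0.13), Lpin2 at -0.19 (SE 0.21) and Mogat2 at -0.28 (SE 0.19).

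De novo lipogenesis, the building of fatty acids from acetyl-CoA, had more lower than higher members. Of 17 genes 11 were lower, 3 of them with a p under 0.05 (3.06% of all genes), and the median was -0.12. Elovl6, which lengthens palmitate to stearate, had 7.44 and 7.23 under rosiglitazone, against 8.38 and 8.02 under vehicle, a difference of -0.87 (SE 0.24, limma adjusted p = 0.814). Scd1, the main stearoyl-CoA desaturase of fat, had 15.28 and 15.21 under rosiglitazone, against 15.63 and 15.59 under vehicle, a difference of -0.36 (SE 0.12). Thrsp, a lipogenic regulator, had 12.16 and 12.09 under rosiglitazone, against 12.45 and 12.63 under vehicle, a difference of -0.41 (SE 0.14). In all 3 the rosiglitazone pools lay below both vehicle pools. The delta-5 desaturase gene Fads1 stood at -0.57 (SE 0.28) and Fasn, the fatty acid synthase, at 0.17 (SE 0.26). Without vehicle pool 1 the list median was 0.06, so its direction rested on that pool.

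Mitochondrial fatty acid oxidation genes were higher in 23 of 24 cases, and the median was 0.30. A p under 0.05 was found in 4, all higher (2.65% of all genes). In 18 of the 24 both rosiglitazone pools lay above both vehicle pools (22.2% of all genes). Without rosiglitazone pool 2, 18 of the 24 were higher with a median of 0.23. Under median scaling 20 were, with a median of 0.21. Acadvl, the first dehydrogenase for very long chains, had 12.23 and 12.44 under rosiglitazone, against 11.70 and 11.89 under vehicle, a difference of 0.54 (SE 0.15, limma adjusted p = 0.814). Slc25a20, the carnitine carrier of the inner membrane, had 13.11 and 13.31 under rosiglitazone, against 12.73 and 12.63 under vehicle, a difference of 0.53 (SE 0.17). Etfb and Etfdh, which pass electrons from these dehydrogenases to ubiquinone, stood at 0.45 (SE 0.14) and 0.39 (SE 0.15). Acad10 alone lay below 0, at -0.05. In peroxisomes 19 of 25 oxidation and assembly genes were higher with a median of 0.16, and 0 had a p under 0.05 in either direction. Acaa1b, a peroxisomal thiolase, stood at 0.71 (SE 0.33), Cat, the catalase that removes hydrogen peroxide there, at 0.45 (SE 0.20) and the import factors Pex16 and Pex5 at 0.36 (SE 0.18) and 0.25 (SE 0.13).

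**Figure D2:**
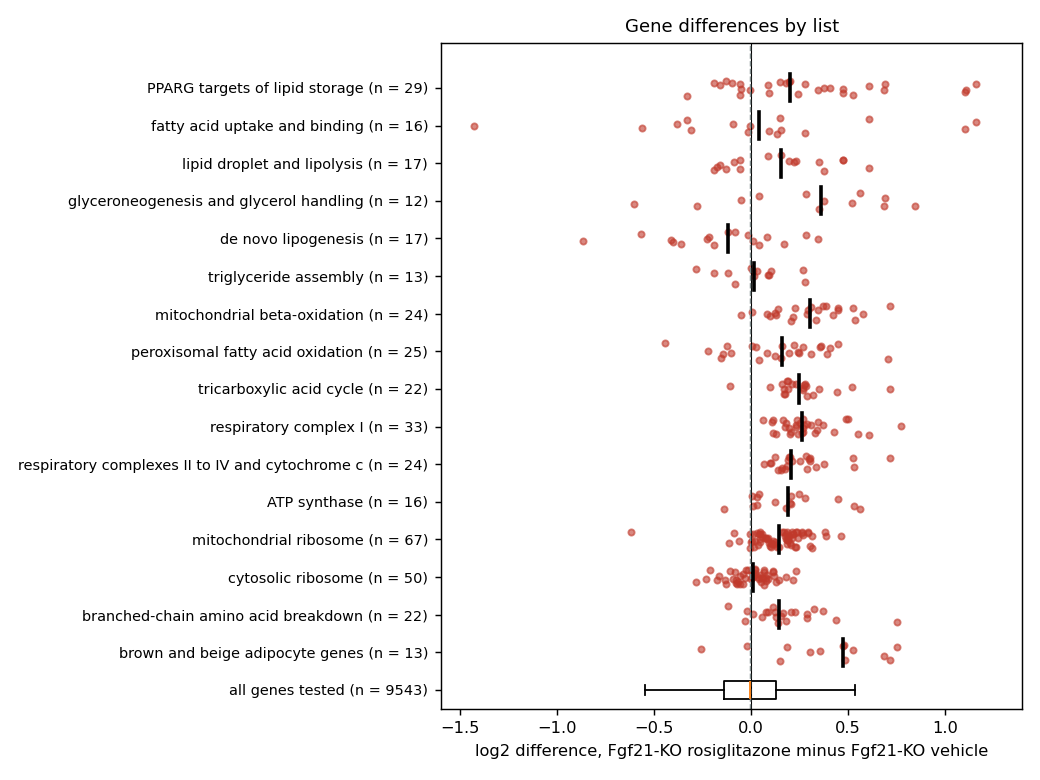
Log2 difference, Fgf21-KO rosiglitazone minus Fgf21-KO vehicle (x axis), of every tested member of 16 lists, one point a gene, with the list median as a black bar and the quartiles of all 9543 genes as a box whose whiskers reach the farthest genes within the usual limit of box lengths. Points of the 3 respiratory chain lists lie almost wholly right of 0, with medians of 0.26, 0.20 and 0.19, while the cytosolic ribosome centres at 0.01 and de novo lipogenesis at -0.12.

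The respiratory chain gave the most uniform pattern. Of its 73 tested genes 72 were higher under rosiglitazone. A p under 0.05 was found in 10, all higher (2.65% of all genes). In 62 both rosiglitazone pools lay above both vehicle pools (22.2% of all genes). The differences were small, with a median of 0.23, or 1.18-fold, and a range of -0.14 to 0.77. All 33 tested subunits and assembly members of complex I, which takes electrons from NADH, were higher (median 0.26), as were all 24 genes of complexes II to IV and cytochrome c (median 0.20) and 15 of 16 genes of the ATP synthase list (median 0.19). The 1 lower gene was Atpif1, the inhibitor of the ATP synthase, at 12.62 and 12.46 under rosiglitazone, against 12.66 and 12.70 under vehicle. Of 71 respiratory chain genes detected on all 8 Fgf21-KO arrays 70 were higher.

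The count depended in part on the scaling of the arrays. With median scaling in place of quantile normalization the median of all genes was -0.09, 65 of the 73 respiratory chain genes were higher and their median was 0.15. Without each Fgf21-KO pool in turn, 67 to 72 of the 73 were higher, and without vehicle pool 2 it was 70 with a median of 0.25. All 73 genes were read in the same 4 pools, so the count is not one of independent observations.

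The members with the largest values came from several complexes. Ndufb9, a subunit of the membrane arm of complex I, had 8.32 and 8.76 under rosiglitazone, against 7.85 and 7.69 under vehicle, a difference of 0.77 (SE 0.18, limma adjusted p = 0.814). Ndufb4, of the same arm, had 7.08 and 6.87 under rosiglitazone, against 6.35 and 6.39 under vehicle, a difference of 0.61 (SE 0.25). Sdhd, a membrane anchor of complex II, had 8.33 and 8.60 under rosiglitazone, against 7.71 and 7.79 under vehicle, a difference of 0.72 (SE 0.23). In each the lower rosiglitazone pool was above the higher vehicle pool. Cycs, cytochrome c, stood at 0.53 (SE 0.21), and Cox6b1 of complex IV at 14.59 and 14.61 under rosiglitazone, against 14.23 and 14.22 under vehicle. Atp5o, in the stalk of the ATP synthase, had 10.03 and 10.06 under rosiglitazone, against 9.47 and 9.49 under vehicle, a difference of 0.56 (SE 0.15, limma adjusted p = 0.814), with pools of a group closer than 0.05. Atp5g2, which encodes the rotor ring subunit, had 10.55 and 10.36 under rosiglitazone, against 9.97 and 10.05 under vehicle.

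**Figure D3:**
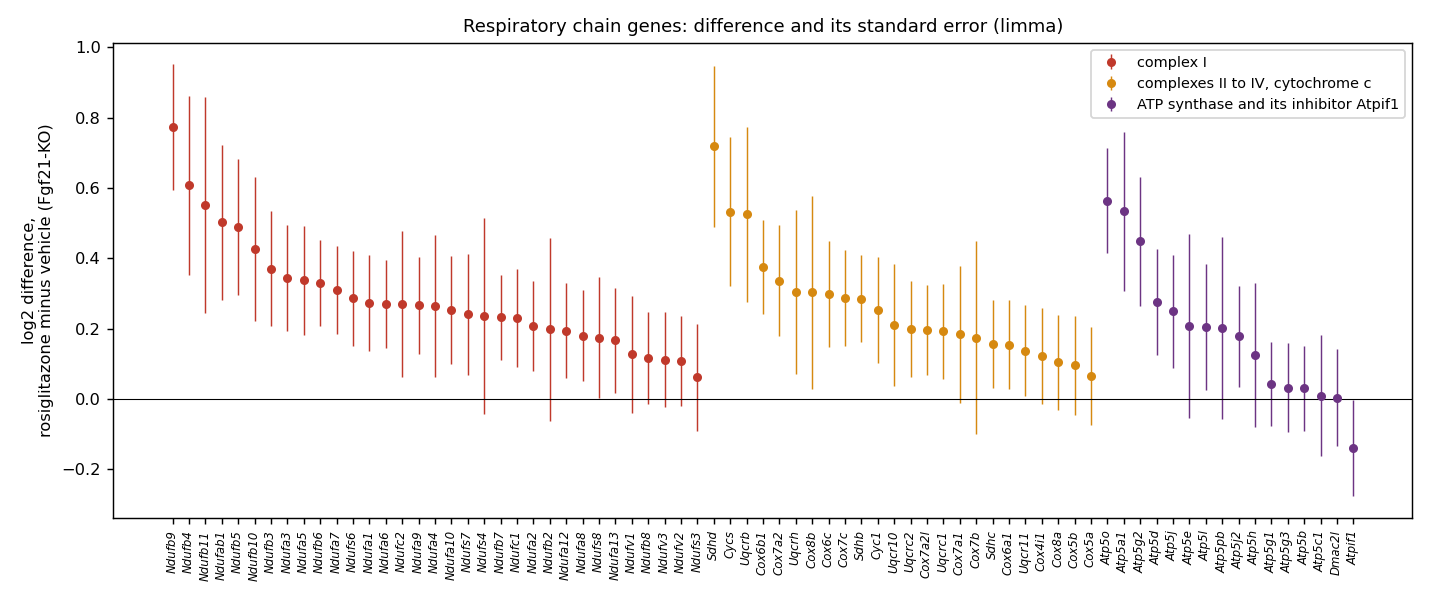
Log2 difference, Fgf21-KO rosiglitazone minus Fgf21-KO vehicle (y axis), of the 73 tested respiratory chain genes (x axis), ordered by size within each class, with bars of 1 standard error from limma. Of the 73 points 72 lie above 0, and the last, the inhibitor gene Atpif1, lies at -0.14.

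Because these genes stood on one side of 0, their promoters are shown for the motifs of factors known to serve mitochondrial genes. The windows run from 250 bases before to 50 bases after the transcription start, as listed by RefSeq on build GRCm38.p6, and 64 of the 73 genes had one. Capitals mark matches to the core motif of NRF1 (nuclear respiratory factor 1), which is GCGCA and GCGC with any 1 base between them, and in Sdhd also a match to TCAAGGTCA, the motif of the estrogen-related receptors, read on its other strand as TGACCTTGA. The 3 windows, written 5′ to 3′ on the gene's strand, which is the minus strand for each, belong to 3 of the 4 genes with the largest differences among holders of the NRF1 motif. They lie at chr9:50603800-50604099 (Sdhd), chr16:37654319-37654618 (Ndufb4) and chr15:102670998-102671297 (Atp5g2).
Sdhd: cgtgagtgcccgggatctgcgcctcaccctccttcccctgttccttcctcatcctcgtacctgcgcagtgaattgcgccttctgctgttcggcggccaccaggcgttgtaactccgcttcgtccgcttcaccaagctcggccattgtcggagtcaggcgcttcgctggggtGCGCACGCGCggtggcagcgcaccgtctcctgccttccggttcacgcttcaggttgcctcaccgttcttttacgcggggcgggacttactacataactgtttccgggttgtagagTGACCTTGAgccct
Ndufb4: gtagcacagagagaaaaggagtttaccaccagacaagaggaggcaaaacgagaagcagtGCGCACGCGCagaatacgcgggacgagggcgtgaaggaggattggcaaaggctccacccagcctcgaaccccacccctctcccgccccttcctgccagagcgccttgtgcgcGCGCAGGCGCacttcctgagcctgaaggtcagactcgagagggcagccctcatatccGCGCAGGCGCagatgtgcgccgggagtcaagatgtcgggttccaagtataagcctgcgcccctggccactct
Atp5g2: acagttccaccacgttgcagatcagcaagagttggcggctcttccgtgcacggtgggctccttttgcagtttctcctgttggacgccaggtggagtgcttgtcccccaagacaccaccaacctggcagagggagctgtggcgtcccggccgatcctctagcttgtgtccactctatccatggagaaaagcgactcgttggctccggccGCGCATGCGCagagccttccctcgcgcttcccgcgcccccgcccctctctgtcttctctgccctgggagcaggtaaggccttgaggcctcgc

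The NRF1 motif, searched on both strands, was held by 13 of 64 respiratory chain promoters (20.3%) and 9 of 59 promoters of the mitochondrial ribosome (15.3%), against 777 of 7712 promoters of all genes tested (10.1%). AAGATGGC, the motif of YY1, was held by 14.1% and 16.9%, against 4.55% of all genes tested. CCGGAAG, the motif of GABPA, another activator of mitochondrial genes, was held by 21.9% and 35.6%, against 17.3%. TCAAGGTCA was found in 2 of 64 respiratory chain promoters (3.12%) and in 0.285% of all. AGGTCA repeated in the same direction with any 1 base between the copies, the element bound by PPAR with RXR, was in 0 of 64 respiratory chain promoters, 0 of 22 promoters of the PPARG target list and 3 of 7712 in all (0.0389%). TCAAGGTCA ends in AGGTCA, a single copy of that repeat, and the other motifs share no such stretch. A match describes letters in the window and not binding. These shares are properties of the genes, not of the treatment.

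Other mitochondrial lists stood higher by similar small amounts. Of 22 tricarboxylic acid cycle genes 21 were higher (median 0.25), with Idh2, the mitochondrial NADP-dependent isocitrate dehydrogenase, at 10.96 and 11.03 under rosiglitazone, against 10.68 and 10.68 under vehicle. Of 67 mitochondrial ribosome genes 61 were higher (median 0.15), 3 with a p under 0.05: Mrpl55 at 0.46 (SE 0.15), Mrpl12 at 0.38 (SE 0.16) and Mrps18b at 0.38 (SE 0.16). Under median scaling 42 of those 67 were higher, with a median of 0.04. In the cytosolic ribosome, whose proteins work outside mitochondria, 29 of 50 genes were higher, the median was 0.01 and 0 had a p under 0.05. Rpl35a and Rpl5, the members of smallest p, stood at 0.21 (SE 0.14) and 0.18 (SE 0.13). Over the 6 mitochondrial lists together 174 of 183 genes were higher, with a median of 0.20. In 134 both rosiglitazone pools lay above both vehicle pools (22.2% of all genes). A p under 0.05 was found in 19, all higher (2.65% of all genes). Under median scaling fewer of the 183 were higher, with a median of 0.12. Without rosiglitazone pool 2, 154 of the 183 were higher, with a median of 0.18.

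Genes listed for brown and beige fat, where mitochondria burn fuel for heat, were higher in 11 of 13 tested cases, with a median of 0.47. Without rosiglitazone pool 2 the median was 0.23. The 2 with a p under 0.05, Slc25a20 and Pdk4, were described above with other lists. Ucp1, the uncoupling protein, had 9.50 and 9.97 under rosiglitazone, against 8.71 and 9.25 under vehicle, a difference of 0.75 (SE 0.38, limma adjusted p = 0.933). Cidea, a droplet protein abundant in brown fat, had 10.12 and 10.61 under rosiglitazone, against 9.82 and 9.96 under vehicle, a difference of 0.47 (SE 0.29). Cpt1b, the muscle form of carnitine palmitoyltransferase, stood at 0.72 (SE 0.33). In all 3 rosiglitazone pool 2 was the highest pool. Ppargc1a, the coactivator of mitochondrial genes, stood at 0.49 (SE 0.22) from a probe detected on 3 of 4 rosiglitazone and 1 of 4 vehicle arrays, and its relative Ppargc1b at 0.35 (SE 0.22). Acot11, a thioesterase of brown fat, lay at -0.26.

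Of 22 genes of branched-chain amino acid breakdown 19 were higher (median 0.15), 1 with a p under 0.05 (2.65% of all genes). Without rosiglitazone pool 2, 14 of the 22 were higher and the median was 0.042, and without rosiglitazone pool 1 it was 0.26. Mccc1, a subunit of methylcrotonyl-CoA carboxylase in leucine breakdown, had 7.90 and 8.46 under rosiglitazone, against 7.52 and 7.34 under vehicle, a difference of 0.75 (SE 0.27). The aminotransferase Bcat2, the dehydrogenase subunit Bckdhb and the thiolase Acat1 stood at 0.37 (SE 0.16), 0.44 (SE 0.20) and 0.33 (SE 0.19). Of 17 cholesterol synthesis genes 14 were higher (median 0.14) and 0 had a p under 0.05. Without vehicle pool 2, 10 of the 17 were higher with a median of 0.026, and under median scaling 9 were, with a median of 0.034. Members included Sc5d, Pmvk, Lss and Dhcr7, between 0.21 and 0.30.

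Hormone, insulin and FGF pathway genes held 2 members with a p under 0.05. Adiponectin (Adipoq) had 15.27 and 15.22 under rosiglitazone, against 15.00 and 15.09 under vehicle, a difference of 0.20 (SE 0.12, limma adjusted p = 0.967), and leptin (Lep) differed by -0.01 (SE 0.14). Both read near the top of the signal range. Retn, which encodes resistin, had 7.46 and 7.63 under rosiglitazone, against 7.21 and 6.89 under vehicle, a difference of 0.49 (SE 0.16, limma adjusted p = 0.828). Rarres2, which encodes the chemoattractant adipokine chemerin, had 13.98 and 13.95 under rosiglitazone, against 14.55 and 14.47 under vehicle, a difference of -0.55 (SE 0.17, limma adjusted p = 0.814). The treated pools were thus apart from the vehicle pools for these 2 adipokines, in opposite directions. Rbp4, a retinol carrier in plasma, stood at -0.29 (SE 0.20).

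Of 11 tested genes of FGF21 signalling 6 were higher and 0 had a p under 0.05. Klb, the co-receptor, had 10.05 and 10.36 under rosiglitazone, against 10.02 and 9.85 under vehicle, and Fgfr1 differed by -0.01 (SE 0.45), Fgfr2 by 0.16 (SE 0.22), Spred1 by -0.28 (SE 0.18) and Etv5 by 0.26 (SE 0.35). Fgf21 read at background in both groups, with a difference of 0.00 (SE 0.38). Of 20 insulin signalling and glucose transport genes 12 were higher and 0 had a p under 0.05, against 7 of 20 higher under median scaling. Slc2a4, the insulin-responsive glucose transporter, had 10.32 and 10.68 under rosiglitazone, against 10.00 and 10.16 under vehicle, a difference of 0.42 (SE 0.33), and Irs2, Pik3cb and Vamp2 stood at -0.36 (SE 0.28), 0.22 (SE 0.13) and -0.20 (SE 0.16). Adipogenic transcription factors and cofactors had 10 of 24 higher, a median of -0.02 and 0 with a p under 0.05, among them Cebpa at -0.05 (SE 0.32), Zfp423 at -0.24 (SE 0.14) and Cdk5 at 0.27 (SE 0.19).

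In antigen presentation 12 of 18 genes were lower, 4 with a p under 0.05 (3.06% of all genes), and the median was -0.15. Without vehicle pool 1 the median was -0.052 and 8 of 18 were higher. The class II gene H2-Eb1 had 12.40 and 12.34 under rosiglitazone, against 12.94 and 12.996 under vehicle, a difference of -0.60 (SE 0.17, limma adjusted p = 0.814), and Ciita, its master regulator, had 7.42 and 7.16 under rosiglitazone, against 8.03 and 7.57 under vehicle. H2-DMb1, which loads class II molecules, and the costimulatory Cd86 both stood at -0.35 (SE 0.14). The treated pools were below both vehicle pools for all 4. Of the macrophage markers 10 of 21 were higher, the median was -0.05, Adgre1, a classical macrophage marker, stood at -0.11 (SE 0.13), and Lyz1 and Cd163 at -0.32 (SE 0.12) and -0.33 (SE 0.15). List levels of macrophage markers were 0.07 and -0.13 in the rosiglitazone pools, against 0.05 and 0.02 in the vehicle pools, each the median over members of log2 signal minus the mean of the 4 pools. Of the lysosome and lipid-laden macrophage genes 19 of 26 were higher (median 0.08), Fabp5 and Plin2 being the 2 with a p under 0.05.

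Lymphocyte markers were low, and their median depended on one pool. Of 14 tested genes 9 were lower and 2 of them had a p under 0.05, Cd3e at -0.65 (SE 0.23) and Zap70 at -0.52 (SE 0.21), with Cd3e detected on 0 of 4 rosiglitazone and 3 of 4 vehicle arrays. The list stood at -0.16 and -0.15 in the rosiglitazone pools, against 0.34 and -0.23 in the vehicle pools, and without vehicle pool 1 the median was 0.17, against -0.23 with it. Among 26 chemokine, cytokine and acute phase genes 17 were lower (median -0.19), with Serpina3n, a serine protease inhibitor of the acute phase, at 14.29 and 14.31 under rosiglitazone, against 14.93 and 14.63 under vehicle. Ccl2, which recruits monocytes, differed by 0.17 (SE 0.27). The complement genes C2 and C6 stood at -0.52 (SE 0.18) and -0.80 (SE 0.29), with 7 of 11 complement genes lower.

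The interferon list was split evenly, 11 of 22 being higher with a median of -0.002. Cxcl9, a chemokine induced by interferon gamma, had 11.02 and 10.87 under rosiglitazone, against 10.18 and 10.21 under vehicle, a difference of 0.76 (SE 0.22, limma adjusted p = 0.814). Ifit2, an antiviral gene, had 7.66 and 7.69 under rosiglitazone, against 8.22 and 8.14 under vehicle, a difference of -0.51 (SE 0.13, limma adjusted p = 0.814). The pools of each group lay within 0.2 of one another for both genes, on opposite sides. Mast cell markers were higher in 7 of 8 genes (median 0.16), with the tryptase gene Tpsab1 at 7.93 and 7.995 under rosiglitazone, against 7.55 and 7.39 under vehicle, and the chymase-type protease gene Mcpt4 at 0.29 (SE 0.13).

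In the extracellular matrix 22 of 34 genes were lower (median -0.09), a direction that turned when 1 pool was left out. The median was 0.013 without vehicle pool 1 and 0.011 without rosiglitazone pool 2. Thbs2, a matricellular thrombospondin, had 10.73 and 10.47 under rosiglitazone, against 11.23 and 12.05 under vehicle, a difference of -1.04 (SE 0.31, limma adjusted p = 0.814). Col18a1, a basement membrane collagen, had 12.50 and 12.43 under rosiglitazone, against 12.92 and 12.89 under vehicle, a difference of -0.44 (SE 0.13). Col1a1, the main fibrillar collagen gene, stood at 0.13 (SE 0.23). Of 30 glutathione and antioxidant genes 19 were higher (median 0.05), while the 2 with a p under 0.05 were lower: Gstm1, a glutathione transferase, at -0.56 (SE 0.16), and Gpx3, the secreted glutathione peroxidase, at -0.57 (SE 0.22).

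Markers of other tissues in the dissected fat differed between pools more than between groups. Liver markers were lower under rosiglitazone in 16 of 17 tested genes with a median of -1.67, but their level stood at -0.57 and -1.13 in the rosiglitazone pools, against -0.84 and 2.68 in the vehicle pools. Ahsg, fetuin A, had 7.38 and 6.33 under rosiglitazone, against 7.03 and 11.72 under vehicle, and Apoa1, the main protein of high-density lipoprotein, had 8.72 and 8.16 under rosiglitazone, against 8.49 and 12.62 under vehicle. Vehicle pool 2 thus carried the liver signal by itself, and without it the median was -0.05, with 8 of 17 genes higher. The 2 liver genes with a p under 0.05, Serpina1b and Serpina1a, differed by -0.85 (SE 0.23) and -1.001 (SE 0.29), and are members of a family of near-identical copies whose probes may share transcripts. How liver transcripts reached this pool was not tested.

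Mesothelium, the layer that covers epididymal fat, had markers lower in 16 of 18 genes with a median of -0.41. Krt19 had 7.28 and 6.44 under rosiglitazone, against 7.66 and 7.72 under vehicle, and Gpm6a, a membrane glycoprotein, had 6.89 and 6.21 under rosiglitazone, against 7.44 and 7.07 under vehicle. Rosiglitazone pool 2 was the lowest pool for both, and the list stood at 0.05 and -0.52 in the rosiglitazone pools, against 0.26 and 0.12 in the vehicle pools. Without rosiglitazone pool 2 the median was -0.10. The part of mesothelial RNA in other differences was not tested. Endothelial markers were higher in 16 of 21 genes (median 0.12, and 0.067 without vehicle pool 2), with Gpihbp1 the 1 gene with a p under 0.05 and Eng, an endothelial co-receptor for TGF-beta, at 0.23 (SE 0.13).

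**Figure D4:**
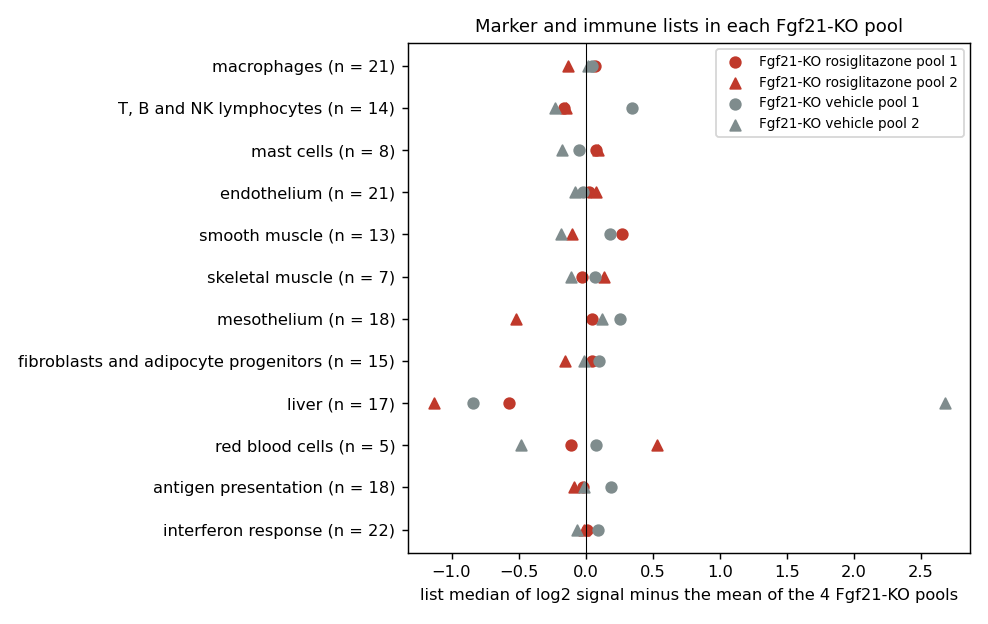
Level of 12 marker and immune lists (rows) in each Fgf21-KO pool, as the median over members of log2 signal minus the mean of the 4 pools (x axis), rosiglitazone pools in red and vehicle pools in grey. Liver markers stand at 2.68 in vehicle pool 2, far from the other 3 pools, and mesothelium markers are lowest, at -0.52, in rosiglitazone pool 2.

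Smaller lists gave isolated values. The progenitor genes Dpp4 and Zfp423 stood at -0.37 (SE 0.21) and -0.24 (SE 0.14), with 10 of 15 fibroblast and progenitor genes lower (median -0.10). Smooth muscle had 7 of 13 higher, with Acta2 at -0.45 (SE 0.53) and Cald1 at 0.37 (SE 0.25), and skeletal muscle 4 of 7 higher, with Pvalb at 0.34 (SE 0.28) and Atp2a1 at 0.11 (SE 0.14). All 5 red blood cell genes were higher (median 0.33, and -0.0046 without vehicle pool 2), led by Hbb-bt at 0.62 (SE 0.27) and Slc4a1 at 0.48 (SE 0.31), and their levels were -0.11 and 0.53 in the rosiglitazone pools, against 0.08 and -0.48 in the vehicle pools. None of these smaller lists had a member with a p under 0.05. Of 4 tested pancreas genes Cela1, an elastase, had 10.29 and 10.20 under rosiglitazone, against 10.82 and 10.76 under vehicle, while Amy2a5 stood at 0.36 (SE 0.42). Beside Krt14, 5 epithelial genes were tested, Cldn7 at 0.36 (SE 0.33) among them. The clock list had 7 of 14 higher, with Tef, a clock-controlled transcription factor, at 0.46 (SE 0.19), and Cry2 at 0.31 (SE 0.17). Proliferation genes had a median of 0.08, with Ccne1 at 0.37 (SE 0.16) and Nusap1 at -0.37 (SE 0.20), and stress genes one of -0.06, with Hspb1 at -0.38 (SE 0.18) and Fosb at 0.41 (SE 0.28).

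Whether the response differed between genotypes was tested by the interaction, the Fgf21-KO difference minus the WT difference. By limma 0 of 13759 probes passed (0%), the smallest adjusted p was 0.5004, and 681 had an unadjusted p under 0.05 (4.95%). The count of probes past an adjusted p of 0.05 depended on which WT rosiglitazone pool was left out. With 1 pool left in that group the fit takes its spread from the other groups, so it cannot assign such calls to either pool. The genes set side by side here were named for their Fgf21-KO difference, which the interaction contains, so their values are a description and not evidence of a genotype difference. Cyp4b1 differed by 1.11 (SE 0.15) in Fgf21-KO, against -0.26 (SE 0.15) in WT, with an interaction of 1.37 (SE 0.21, limma adjusted p = 0.653). Rbp7 differed by 1.27 (SE 0.18) in Fgf21-KO, against -0.09 (SE 0.18) in WT, with an interaction of 1.36 (SE 0.25, limma adjusted p = 0.814). Nap1l5 and Slc27a1 differed by 1.18 and 1.11 in Fgf21-KO, against -0.06 and 0.20 in WT. These 4 genes thus had small values in WT. Others were higher in both genotypes: Fabp5 differed by 1.16 in Fgf21-KO, against 0.60 in WT, Chrna2 by 1.27, against 0.85, and Susd4 by 1.15, against 0.76, with interaction p from 0.142 to 0.414.

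Some genes stood on opposite sides. Faah differed by -1.53 (SE 0.40) in Fgf21-KO, against 1.25 (SE 0.40) in WT, with an interaction of -2.77 (SE 0.57, limma adjusted p = 0.827). Elovl6 differed by -0.87 in Fgf21-KO, against 0.55 in WT (interaction -1.41, SE 0.33, limma adjusted p = 0.827), and Cxcl9 by 0.76, against -0.88 (interaction 1.64, SE 0.31, limma adjusted p = 0.814). Pdk1, Plin2 and Atp5o differed by 0.85, 0.61 and 0.56 in Fgf21-KO, against -0.16, 0.01 and -0.09 in WT. As a list the respiratory chain had a median of 0.23 in Fgf21-KO, against 0.11 in WT, where 52 of 73 genes were higher. The Fgf21-KO value was the larger in 55 of the 73, and 2 genes had an interaction p under 0.05. Of all 9543 genes 5295 were higher in WT and 4225 had the larger value in Fgf21-KO. An interaction p under 0.05 was found in 458 of them. PPARG targets had medians of 0.20 in Fgf21-KO and 0.01 in WT, and de novo lipogenesis -0.12 in Fgf21-KO and 0.30 in WT. Brown and beige genes had medians of 0.47 in Fgf21-KO and 0.35 in WT. The list contrasts between genotypes were not tested. In WT, markers of smooth muscle and of epididymis and epithelium had median differences of 1.22 and 1.74, against 0.05 and -0.22 in Fgf21-KO, and their part in the contrasts was not tested. The WT rosiglitazone pools differed from each other with a pooled SD of 0.476, against 0.198 in Fgf21-KO rosiglitazone, 0.286 in Fgf21-KO vehicle and 0.226 in WT vehicle.

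The authors' deposited table of their own comparison, which took arrays and not pools as the unit, called 309 features for rosiglitazone in Fgf21-KO, 102 higher and 207 lower. Genes tested here matched 240 of those called in the authors' deposited table, and 81 of 81 higher and 158 of 159 lower genes had the same direction here. Both rest on the same arrays. Among the 159 lower genes of the authors' deposited table vehicle pool 2 exceeded vehicle pool 1 by more than 1 in 70, and the pools overlapped in 54. Among its 81 higher genes the pools did not overlap in 78. The authors' deposited table gave ratios of 2.37 for Rbp7, 2.25 for Ephx2, 2.05 for Slc27a1, 2.02 for Cyp4b1 and 1.93 for Fabp5. Its largest ratio, 3.55, was for Ccl21a, a chemokine of lymphatic vessels. Here the Ccl21a probe read 11.27 and 11.44 under rosiglitazone, against 9.88 and 8.19 under vehicle, a difference of 2.32 (SE 1.17, limma adjusted p = 0.936), and it has near-identical copies that the probe may not tell apart.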

How the data were processed

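Per the file headers, the deposited raw table pairs a mean bead signal (a linear intensity) with a detection p-value for every probe and array. The authors also deposited normalized intensities, likewise linear. The authors' deposited statistics table holds group means, ratios and p-values from their own test. Another 64 per-array columns were not used. In R 4.3.3 with limma 3.58.1, intensities of all 16 arrays were background-corrected (normexp by detection p, offset 16), quantile normalized and converted to log2, and both arrays of each pool were then averaged. A probe was tested if its detection p was at most 0.05 on 4 or more of the 16 arrays: 13759 probes of 9543 genes, 789 probes without symbol. Of 25697 probes 23978 had a symbol and 23962 matched RefSeq (GRCm38.p6) by Entrez ID.

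One model with 4 group means was fitted over 8 pools (lmFit, eBayes, residual df 4, prior df 2.74). P-values are two-sided, adjusted by Benjamini-Hochberg over all probes tested. SE is limma's. Bounds for undetected probes set the detected group's mean against the lowest detected signal per array or the probe's own, whichever is higher. The fit was checked on simulated data. P-values and SEs rest on the spread between pools in all 4 groups, WT included, and not in the Fgf21-KO pools alone. The WT rosiglitazone pools varied most, with a pooled SD of 0.476. It was 0.198 in Fgf21-KO rosiglitazone and 0.286 in Fgf21-KO vehicle. The number of 2 pools a group limits the precision.

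Named were the 12 largest differences each way with an unadjusted p under 0.05, no overlap of pools and detection on all arrays of the higher group, the members of smallest p of each of 43 lists, and a fixed panel. Members, lists and motifs were chosen with earlier results of these data known. Alternatives changed background, scaling, filter, replicate handling and the pools used.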

Additional observations from a re-analysis of the deposited data

How the results depend on the processing

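Precision is limited by 2 pools a group and, for dim probes, by signal close to background. For Fgf21-KO, 0 probes passed an adjusted p of 0.05 under all settings tried but one, the smallest adjusted p of those lying between 0.0720 and 1.00. With 16 arrays and pool as a random block 13 passed in Fgf21-KO and 22 for the interaction. The count at an unadjusted p under 0.05 was 1506 with the Fgf21-KO arrays normalized and fitted alone, 1486 with the Fgf21-KO pools only in the fit, 1549 without a filter (more probes tested) and 1693 with pool weights. It was 405 to 1557 when 1 pool was left out, lowest without Fgf21-KO vehicle replicate 2 (405) and Fgf21-KO rosiglitazone replicate 2 (428), highest without either WT rosiglitazone replicate. The interaction count at an adjusted p of 0.05 was then 0 to 1698, highest without WT rosiglitazone replicate 2. Under median scaling 28.5% of the 634 probes with such a p were higher, against 50.4% of 776 in the report.

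The replicate numbers were not used to pair the samples in the main fit. The correlation of deviations of same-numbered pools was -0.033 between the Fgf21-KO groups. It was 0.27 between Fgf21-KO vehicle and WT vehicle, the largest of any pair of groups, and its cause was not tested. With a replicate block 0 probes passed and 750 had an unadjusted p under 0.05.

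Median scaling gave list medians of 0.11 for the ATP synthase, -0.21 for de novo lipogenesis, 0.044 for the mitochondrial ribosome, 0.18 for complex I, 0.13 for complexes II to IV and 0.17 for the tricarboxylic acid cycle. It turned those of adipokines (-0.063), cell proliferation (-0.0065), clock (-0.040), cytosolic ribosome (-0.092), fatty acid uptake (-0.056), insulin signalling (-0.066), glutathione (-0.041), lysosome (-0.018) and triglyceride assembly (-0.059) and the difference of Dgat2 (-0.016). Brown and beige genes had 0.29 with the authors' table and with no background correction, and 0.30 without a filter. Pancreas genes had -0.057 without a filter and -0.093 when detected on all 8 Fgf21-KO arrays, and Fgf21 -0.0073 and -0.0064 with the authors' table and without background correction. The cause was not tested.

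Leaving out 1 Fgf21-KO pool at a time gave these ranges of list medians: ATP synthase 0.089 to 0.22, brown and beige 0.23 to 0.55, beta-oxidation 0.23 to 0.43, PPARG targets 0.13 to 0.35, complexes II to IV 0.20 to 0.27, tricarboxylic acid cycle 0.15 to 0.32, de novo lipogenesis -0.16 to 0.061, liver -3.51 to -0.049, mesothelium -0.75 to -0.097, adipogenic factors -0.062 to 0.031, adipokines -0.084 to 0.077, chemokines -0.26 to 0.048, cytosolic ribosome -0.032 to 0.032, fatty acid uptake -0.057 to 0.12, fibroblasts -0.19 to 0.050, heat shock -0.15 to 0.098, interferon -0.12 to 0.11, macrophages -0.16 to 0.077, extracellular matrix -0.19 to 0.013, antigen presentation -0.22 to -0.052, branched-chain amino acid breakdown 0.042 to 0.26, cholesterol synthesis 0.026 to 0.20, insulin signalling -0.036 to 0.14, triglyceride assembly -0.024 to 0.083, smooth muscle -0.12 to 0.26, skeletal muscle -0.036 to 0.14, red blood cells -0.0046 to 0.71, clock -0.0044 to 0.13, proliferation 0.00062 to 0.19, lysosome 0.0086 to 0.064, complement -0.15 to -0.050, lipid droplet 0.090 to 0.21, glutathione 0.014 to 0.092, mast cells 0.15 to 0.29, FGF21 signalling 0.011 to 0.22, pancreas 0.017 to 0.15, epithelium -0.27 to -0.062, and lymphocytes -0.36 to 0.17. Gene differences that changed sign ranged over -0.21 to 0.015 for Angptl4, -0.096 to 0.44 for Ccl2, -0.18 to 0.070 for Cebpa, -0.014 to 0.83 for Ehhadh, -0.11 to 0.62 for Etv5, -0.039 to 0.60 for Fabp4, -0.11 to 0.45 for Fasn, -0.20 to 0.21 for Fgf21, -0.081 to 0.054 for Fgfr1, -0.078 to 0.054 for Lep, -0.0074 to 6.5e-05 for Lpl, -0.46 to 0.35 for Pck1, -0.25 to 0.13 for Plin1 and -0.036 to 0.72 for Pvalb. The 24 largest differences kept their direction in 353 of 353 gene and setting combinations. They were chosen for pools that do not overlap, so leaving out 1 Fgf21-KO pool could not turn them. Most of this count was thus fixed by the choice.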
